A study of Mus musculus with 4 samples.

Results

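The genes described here are the secreted antagonists of Wnt signaling Sfrp1, Sfrp2, Sfrp5, Frzb, Wif1, Dkk1, Dkk2, Dkk3 and Notum, together with Shisa2, whose protein acts inside the cell. Every probe set of the array that was annotated to 1 of these 10 genes alone was taken, which gave 19 of the 45101 probe sets and 10 of the 18194 genes measured. Sfrp1 had 5 probe sets, Sfrp5, Frzb, Dkk1, Dkk3 and Shisa2 had 2 each, and the other 4 genes had 1 each. The rule lists the genes by name and uses no measured value, but the list was drawn up with earlier results of these data known. The arrays measured total RNA of mouse embryonic stem cells (ESCs) that carried a GFP reporter of Rax, a homeobox gene of the rostral forebrain and eye field. The cells were differentiated in the 3-D aggregate culture called SFEBq and separated at day 4.5 by fluorescence-activated cell sorting into Rax::GFP+ cells (2 arrays) and Rax::GFP- cells (2 arrays). The comparison addresses which signaling components differ between the rostral cells and the remainder of the aggregate at this stage. Both groups came from the same reporter line and the same kind of untreated culture. The methods describe the arrays of a group as biological duplicates, with RNA pooled from many aggregates per experiment. The p-values rest on the spread between these duplicates, moderated toward the spread over all probe sets. The GFP- group is defined only by the absence of the reporter signal and may hold several kinds of cell.

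Wnt proteins are secreted, lipid-modified ligands that bind Frizzled receptors and the co-receptors Lrp5 and Lrp6 on the receiving cell. In the canonical branch this stabilizes beta-catenin, which enters the nucleus and switches on target genes through TCF/LEF transcription factors. In the early vertebrate embryo, Wnt signaling gives neural tissue a caudal character, and antagonists made in and near the rostral region protect the forebrain from it. The antagonists act at different steps. Sfrp proteins, Frzb and Wif1 bind Wnt proteins outside the cell, Dkk1 and Dkk2 bind Lrp5 and Lrp6, and Notum removes the lipid that Wnt proteins need for receptor binding. Shisa proteins were first described in Xenopus, where Shisa holds immature Frizzled and Fgf receptors in the endoplasmic reticulum.

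Of the whole data set, the 4 arrays had median log2 values of 5.84 to 5.89, and the 2 arrays of a group correlated at 0.996 in GFP+ cells and 0.998 in GFP- cells over all probe sets. The values do not go against the labels. Rax, the gene whose reporter defined the sort, differed by 2.05 (adjusted p = 0.00785) on the log2 scale, GFP+ minus GFP-, Six3 by 0.85 (adjusted p = 0.0389), and the caudal marker Irx3 by -2.59 (adjusted p = 0.0175), all by limma's moderated test with Benjamini-Hochberg adjustment. Of the rostral markers 5 of 6 were called higher in GFP+ cells at an adjusted p under 0.05, as were 4 of 6 early neural markers. Of the caudal neural markers 4 of 6 were called higher in GFP- cells. Of all genes, each by its probe set of highest mean, 2.63% were called higher in GFP+ cells and 5.40% in GFP- cells. Also called higher in GFP- cells were 5 of 6 pluripotency markers and 7 of 10 endoderm markers. The summed log2 values of the pluripotency list were 40.9 and 41.9 on the GFP+ arrays and 56.6 and 57.2 on the GFP- arrays. Those of the endoderm list were 59.5 and 64.5 on the GFP+ arrays and 80.7 and 81.9 on the GFP- arrays. Of the mesoderm markers 1 of 5 was called higher in GFP- cells (Eomes), and the median difference of the 5 was -0.53. Of the neural crest markers 1 of 6 was called higher in GFP+ cells (Snai2) and 1 of 6 in GFP- cells (Foxd3). The part of these other cell markers in the differences given below was not tested. In such sorted pools, fewer cells that express a gene and less of its RNA per cell cannot be told apart.

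Shisa2, Sfrp1 and Frzb were higher in the rostral cells and no member gene was called lower. In all, 5 of the 19 member probe sets passed an adjusted p of 0.05 and were higher in GFP+ cells, namely both of Shisa2, 2 of Sfrp1 and 1 of Frzb. Over all probe sets of the array, 3.82% were called higher in GFP+ cells, 3.64% higher in GFP- cells and 7.47% in either direction. Without GFP+ replicate 2, 2 of the 19 were called, and without any 1 of the other 3 arrays 0 were called by limma (12 without GFP+ replicate 1, 6 without GFP- replicate 1 and 7 without GFP- replicate 2 at an unadjusted p under 0.05). The called differences were 1.49-fold to 1.78-fold in size. No member probe set was called higher in GFP- cells by limma. At an unadjusted p under 0.05, 8 were higher in GFP+ cells and 2 in GFP- cells, while 26.7% of all probe sets had such a p. With each gene represented by its probe set of highest mean, 3 of the 10 genes were called higher in GFP+ cells and 0 in GFP- cells, against 2.63% and 5.40% of all genes (8.02% in either direction).

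The 2 groups did not overlap on 13 of the 19 member probe sets (68.4%), with GFP+ arrays higher on 9 and GFP- arrays higher on 4. Over the whole array 57.3% of probe sets had no overlap, 24.9% with GFP+ higher and 32.5% with GFP- higher. The median difference of the member probe sets was 0.09 (log2, GFP+ minus GFP-), and that of all probe sets was -0.03. All 5 calls fell among the 12 member probe sets that lay above the array median on every array. Among all 20871 probe sets of that kind, 4.71% were called higher in GFP+ cells and 9.44% in either direction. The 2 arrays of a group differed by a median of 0.15 on member probe sets and 0.11 on all probe sets.

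**Figure D1:**
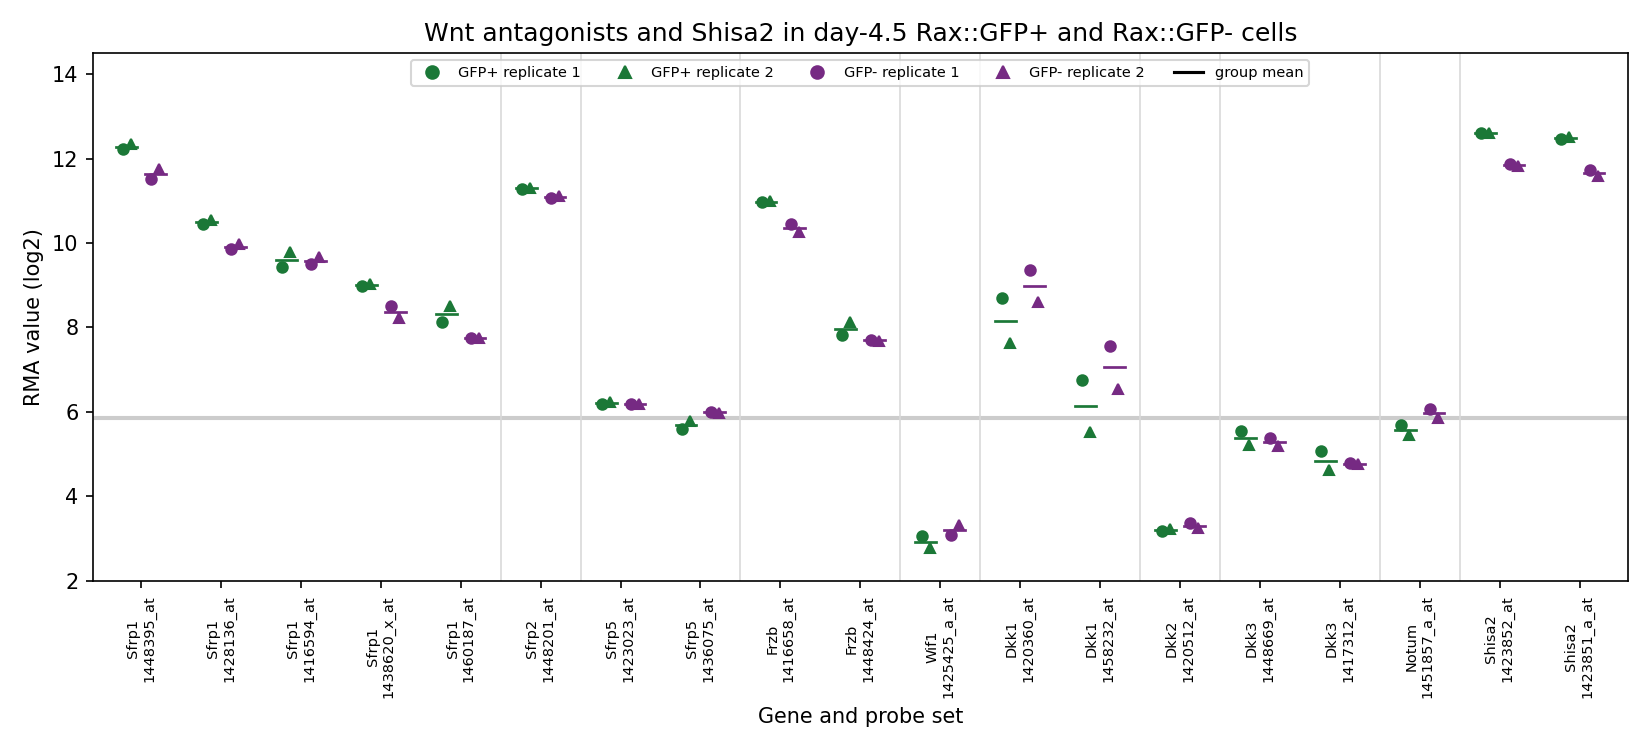
Log2 RMA value on each array for the 19 probe sets of the 10 genes, with GFP+ arrays to the left of GFP- arrays. Circles are replicate 1, triangles replicate 2, short bars the group means, and the grey band spans the array medians of 5.84 to 5.89. Both Shisa2 probe sets have their 2 GFP+ arrays within 0.04 of each other and clear of both GFP- arrays, whereas the 2 arrays of either group lie 0.76 to 1.25 apart on both Dkk1 probe sets.

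Reference sequence around the start site was matched by gene symbol for 7 of the 10 genes in the RefSeq promoter set of build GRCm38.p6, 250 bases before to 50 after the start. Those of Shisa2 and Frzb are shown because these genes were called higher in GFP+ cells. That of Dkk1 is shown because its replicate 1 lay above replicate 2 in both groups, as for 7 of 9 canonical Wnt targets. The same order held for 4 of 6 early neural markers, 8 of 14 other Wnt inhibitors and 23.4% of all genes. What the order reflects was not tested. The windows of Shisa2, Frzb and Dkk1 lie at chr14:59625031-59625330 (plus strand), chr2:80447347-80447646 (minus strand) and chr19:30549447-30549746 (minus strand) in that order. Each is written 5′ to 3′ along the gene, and capitals mark matches to the core letters CTTTGA or CTTTGT of the TCF/LEF motif on either strand.
Shisa2: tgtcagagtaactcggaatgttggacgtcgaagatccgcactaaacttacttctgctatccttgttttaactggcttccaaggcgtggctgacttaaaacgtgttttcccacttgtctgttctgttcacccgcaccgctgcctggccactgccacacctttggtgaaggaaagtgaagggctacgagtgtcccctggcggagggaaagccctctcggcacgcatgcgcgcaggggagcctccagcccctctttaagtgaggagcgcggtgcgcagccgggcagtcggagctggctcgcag
Frzb: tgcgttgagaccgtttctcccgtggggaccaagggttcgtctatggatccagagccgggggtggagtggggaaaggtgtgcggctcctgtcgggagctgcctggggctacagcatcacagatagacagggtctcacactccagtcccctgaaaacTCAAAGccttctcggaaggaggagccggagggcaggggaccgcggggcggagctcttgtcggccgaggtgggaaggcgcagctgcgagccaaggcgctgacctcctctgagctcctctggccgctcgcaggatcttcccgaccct
Dkk1: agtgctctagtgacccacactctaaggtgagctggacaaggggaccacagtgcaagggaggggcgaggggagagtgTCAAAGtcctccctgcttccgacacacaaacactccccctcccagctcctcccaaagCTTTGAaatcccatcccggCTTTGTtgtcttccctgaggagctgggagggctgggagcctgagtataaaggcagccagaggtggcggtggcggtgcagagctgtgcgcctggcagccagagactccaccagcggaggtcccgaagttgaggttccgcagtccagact
The Dkk1 window held 3 matches, whose first bases lay at -174 (opposite strand), -117 and -98 (same strand as the gene) counted from the start site. The Frzb window held 1 match at -95 on the opposite strand, Dkk2 held 1 at -80 on its own strand, and the windows of Shisa2, Sfrp2, Sfrp5 and Wif1 held 0. No match overlapped another. Of 32851 promoter windows of 300 bases, 16.0% held CTTTGA, 18.7% held CTTTGT, 31.2% held either, and 1.14% held 3 or more matches. A match to these letters is a description of the sequence and was not tested as a binding site.

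Shisa2, whose Xenopus relative retains Frizzled and Fgf receptors inside the cell, had the smallest adjusted p-values of the 10 genes. Its probe set 1423852_at read 12.60 and 12.60 in GFP+ cells against 11.88 and 11.81 in GFP- cells on the log2 scale. The lower GFP+ array lay 0.71 above the higher GFP- array. The difference was 0.75 (SE 0.07, 95% interval 0.56 to 0.94, adjusted p = 0.0152 by limma), or 1.68-fold. The second probe set, 1423851_a_at, read 12.47 and 12.51 in GFP+ cells against 11.73 and 11.59 in GFP- cells. It gave a difference of 0.83 (SE 0.08, 95% interval 0.61 to 1.06, adjusted p = 0.0167 by limma), or 1.78-fold, with the 4 arrays again in separate groups. Both Shisa2 calls were kept without GFP+ replicate 2 (adjusted p = 0.0398 and 0.0447 by limma). Neither was kept without GFP+ replicate 1 (adjusted p = 0.0662 and 0.0673 by limma), and without GFP- replicate 1 or GFP- replicate 2 limma called no probe set of the whole array (7704 and 7697 had an unadjusted p under 0.05).

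Sfrp1, a secreted protein with a Frizzled-like cysteine-rich domain, was higher in GFP+ cells on 4 of its 5 probe sets without overlap, and 2 of them were called. The values on 1448395_at were 12.23 and 12.34 in GFP+ cells against 11.53 and 11.74 in GFP- cells, with both GFP+ arrays above both GFP- arrays. Here limma gave a difference of 0.65 (SE 0.11, adjusted p = 0.0415), or 1.57-fold. On 1428136_at the values were 10.44 and 10.54 in GFP+ cells against 9.85 and 9.98 in GFP- cells. The difference was 0.58 (SE 0.09, adjusted p = 0.0358 by limma), or 1.49-fold, and the groups were again separate.

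The probe sets 1438620_x_at and 1460187_at had differences of like size that were not called. For 1438620_x_at, whose suffix marks probes that may also match other transcripts, the values were 8.98 and 9.04 in GFP+ cells against 8.51 and 8.21 in GFP- cells, a difference of 0.65 (adjusted p = 0.0542 by limma). For 1460187_at they were 8.13 and 8.51 in GFP+ cells against 7.76 and 7.74 in GFP- cells, a difference of 0.57 (adjusted p = 0.0933 by limma). Neither probe set had overlapping groups. The fifth, 1416594_at, disagreed with the other 4. It read 9.43 and 9.78 in GFP+ cells against 9.50 and 9.66 in GFP- cells, and both GFP- values lay between the GFP+ values. Its difference was 0.03 (95% interval -0.36 to 0.42, adjusted p = 0.937 by limma), and the sign turned when arrays were centred on their medians (-0.01). Within each array, 1448395_at stood 2.80 and 2.56 above 1416594_at in GFP+ cells and 2.03 and 2.09 above it in GFP- cells, so the gap between these 2 probe sets was 0.62 wider in GFP+ cells. The gap from 1448395_at to each of the other 3 Sfrp1 probe sets changed by 0.00 to 0.08 between the groups. Averaged over all 5 probe sets, Sfrp1 differed by 0.49 (adjusted p = 0.0255 by limma over all genes).

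Frzb, also named Sfrp3, showed the same kind of split between a called and an uncalled probe set. Probe set 1416658_at read 10.96 and 10.99 in GFP+ cells against 10.44 and 10.25 in GFP- cells. The groups were 0.52 apart at their nearest arrays, and the difference was 0.63 (SE 0.10, 95% interval 0.38 to 0.88, adjusted p = 0.0358 by limma), or 1.55-fold. Probe set 1448424_at read 7.82 and 8.12 in GFP+ cells against 7.71 and 7.68 in GFP- cells. These groups did not overlap either, by a margin of 0.11, but the difference of 0.27 was not called (95% interval -0.05 to 0.60, adjusted p = 0.250 by limma). It was 0.43 without GFP+ replicate 1 and 0.12 without GFP+ replicate 2. The mean of both probe sets differed by 0.45 (adjusted p = 0.0319 by limma over all genes). The calls of Sfrp1 and Frzb did not survive the removal of any 1 array: adjusted p-values were 0.101 to 0.120 without GFP+ replicate 1 and 0.0858 to 0.101 without GFP+ replicate 2 by limma.

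None of the remaining proteins that bind Wnt ligands (Sfrp2, Sfrp5 and Wif1) was called. Sfrp2 read 11.27 and 11.31 in GFP+ cells against 11.08 and 11.11 in GFP- cells, a difference of 0.20 (95% interval 0.01 to 0.39, adjusted p = 0.171 by limma). Its groups did not overlap, and replicates were 0.04 and 0.03 apart, but it was not called. Sfrp5 gave 6.18 and 6.23 in GFP+ cells against 6.18 and 6.19 in GFP- cells on 1423023_at, with a difference of 0.02 whose sign turned when arrays were centred on their medians (-0.02). On 1436075_at it gave 5.59 and 5.78 in GFP+ cells against 6.01 and 5.97 in GFP- cells, a difference of -0.30 (95% interval -0.56 to -0.05, adjusted p = 0.136 by limma). The Sfrp5 probe sets thus disagreed in whether the groups overlapped, and neither was called. Wif1, which binds Wnt proteins through its own WIF domain, read 3.06 and 2.78 in GFP+ cells against 3.08 and 3.31 in GFP- cells. All 4 Wif1 values lay below the array medians, and the groups were 0.02 apart.

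**Figure D2:**
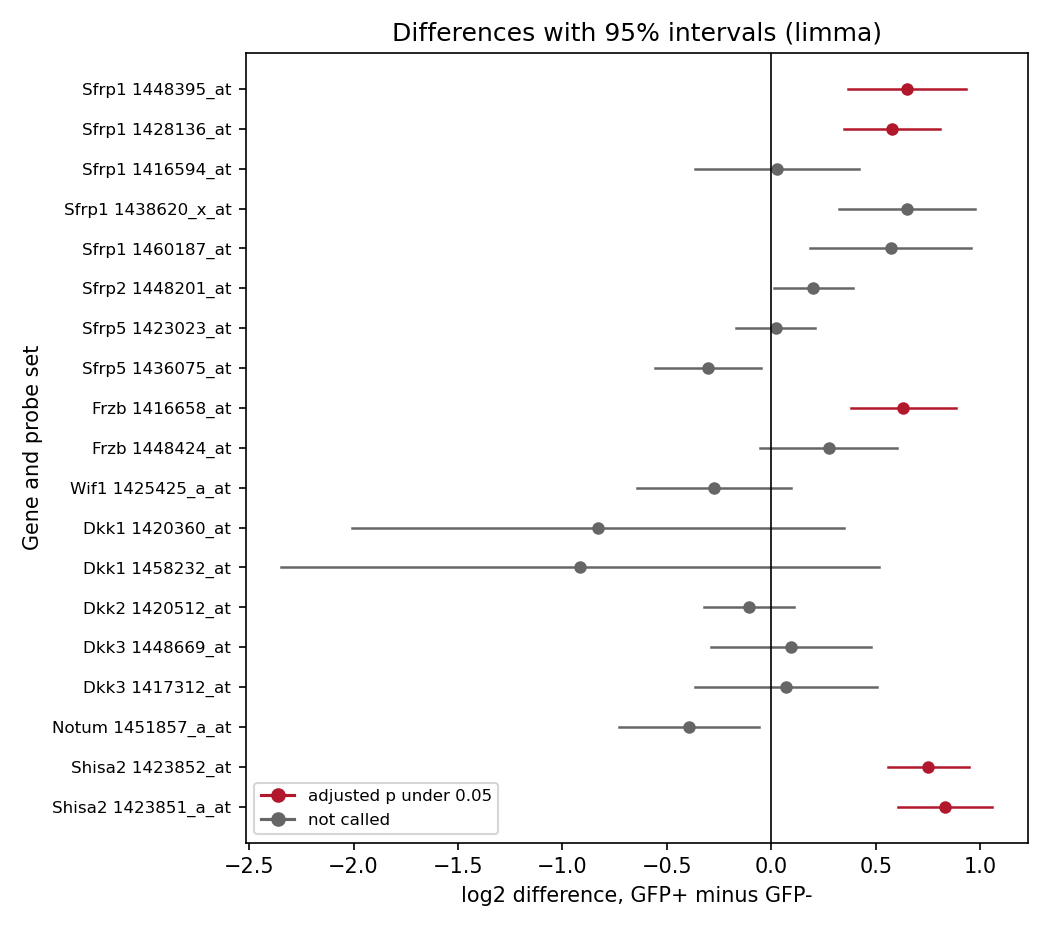
Difference in log2 value, GFP+ minus GFP-, for each of the 19 probe sets, with 95% intervals from the limma fit over all probe sets. Red points passed an adjusted p of 0.05 (5 probe sets of Shisa2, Sfrp1 and Frzb), and the intervals of the Dkk1 probe sets are the widest shown, reaching from -2.35 to 0.52 for 1458232_at.

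Dkk1, the Dickkopf protein that blocks Lrp5 and Lrp6, had the lowest differences of the 10 genes and also the widest spread between replicates. On 1420360_at it read 8.70 and 7.63 in GFP+ cells against 9.37 and 8.61 in GFP- cells. On 1458232_at it read 6.77 and 5.52 in GFP+ cells against 7.56 and 6.55 in GFP- cells. On both probe sets GFP+ replicate 1 lay above GFP- replicate 2, so the groups overlapped. The differences were -0.83 (SE 0.44, 95% interval -2.01 to 0.35) and -0.91 (SE 0.54, 95% interval -2.35 to 0.52), with adjusted p = 0.319 and 0.361 by limma. With GFP+ replicate 1 left out they were -1.37 and -1.54, and with GFP+ replicate 2 left out -0.29 and -0.29. Leaving out GFP- replicate 1 gave -0.45 and -0.41, and leaving out GFP- replicate 2 gave -1.21 and -1.42, so their size rested on which array was kept while the sign did not turn. Replicate 1 exceeded replicate 2 by 1.07 and 1.25 in GFP+ cells and by 0.76 and 1.01 in GFP- cells. Between arrays of the same number, GFP+ minus GFP- was -0.68 and -0.98 on 1420360_at and -0.80 and -1.03 on 1458232_at. The sources do not say that a number marks a shared culture or day.

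The other Dickkopf genes lay below the array medians on all 4 arrays. Dkk2, which like Dkk1 binds Lrp5 and Lrp6, read 3.17 and 3.22 in GFP+ cells against 3.36 and 3.24 in GFP- cells, a difference of -0.11 (adjusted p = 0.474 by limma). Dkk3 is a divergent member of the family whose role in Wnt signaling is less settled. It read 5.55 and 5.23 in GFP+ cells against 5.39 and 5.20 in GFP- cells on 1448669_at, and 5.07 and 4.62 in GFP+ cells against 4.79 and 4.77 in GFP- cells on 1417312_at. Both Dkk3 probe sets had overlapping groups and differences of 0.09 and 0.07.

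Notum, the secreted enzyme that takes the lipid off Wnt proteins, was lower on both GFP+ arrays than on either GFP- array. It read 5.69 and 5.46 in GFP+ cells against 6.08 and 5.86 in GFP- cells, and the difference of -0.40 was not called (SE 0.13, 95% interval -0.73 to -0.06, adjusted p = 0.141 by limma). Replicate 1 exceeded replicate 2 by 0.23 in GFP+ cells and 0.22 in GFP- cells.

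Dkk1 and Notum are themselves known targets of canonical Wnt signaling, so they were set beside 9 other targets, each read by its probe set of highest mean. Of these, Tnfrsf19, a receptor of the TNF family, was called and was lower in GFP+ cells. It read 6.17 and 5.05 in GFP+ cells against 9.73 and 8.75 in GFP- cells, a difference of -3.63 (SE 0.50, adjusted p = 0.0301 by limma), or 12.4-fold. The other 8 were not called on that probe set, although a second probe set of Cd44, a cell-surface receptor for hyaluronan, was called higher in GFP+ cells (difference 0.51, adjusted p = 0.0311 by limma). The uncalled targets included Axin2, the scaffold of the beta-catenin destruction complex, with 7.90 and 7.40 in GFP+ cells against 8.48 and 8.04 in GFP- cells (difference -0.61, adjusted p = 0.190 by limma). Another was the transcription factor Sp5, with 5.53 and 4.22 in GFP+ cells against 7.86 and 6.23 in GFP- cells (difference -2.17, adjusted p = 0.143 by limma). At an unadjusted p under 0.05 by limma, on the probe sets of highest mean, 2 of the 9 targets were higher in GFP+ cells and 2 were lower. The higher ones were Cd44 (difference 0.41) and Lgr5 (difference 0.46), and the lower ones were Tnfrsf19 and Sp5. Of all probe sets, 26.7% had such a p. Sp5, Cd44 and Lgr5 were chosen for naming after their values were seen. The median difference of the 9 targets was -0.29, and that of all genes was -0.05. Replicate 1 lay above replicate 2 in both groups for 7 of the 9 targets (77.8%) and for 4 of the 10 member genes, against 23.4% of all 18194 genes. The same order held for 8 of the 14 other Wnt inhibitors (57.1%), 4 of the 6 early neural markers (66.7%) and 3 of the 6 genes in each of the caudal neural, pluripotency and neural crest lists. It held for 1 of the 2 Wnt secretion genes, 5 of the 19 Wnt ligands and 1 of the 5 mesoderm markers. Of the rostral markers 1 of 6 had it, as had 1 of 6 other Shisa genes and 2 of 12 Frizzled and Lrp receptor genes. The endoderm list had it for 1 of 10 genes and the Fgf receptors for 0 of 4. Some lists thus shared this order in part, none at the share of the targets, and its cause was not tested.

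**Figure D3:**
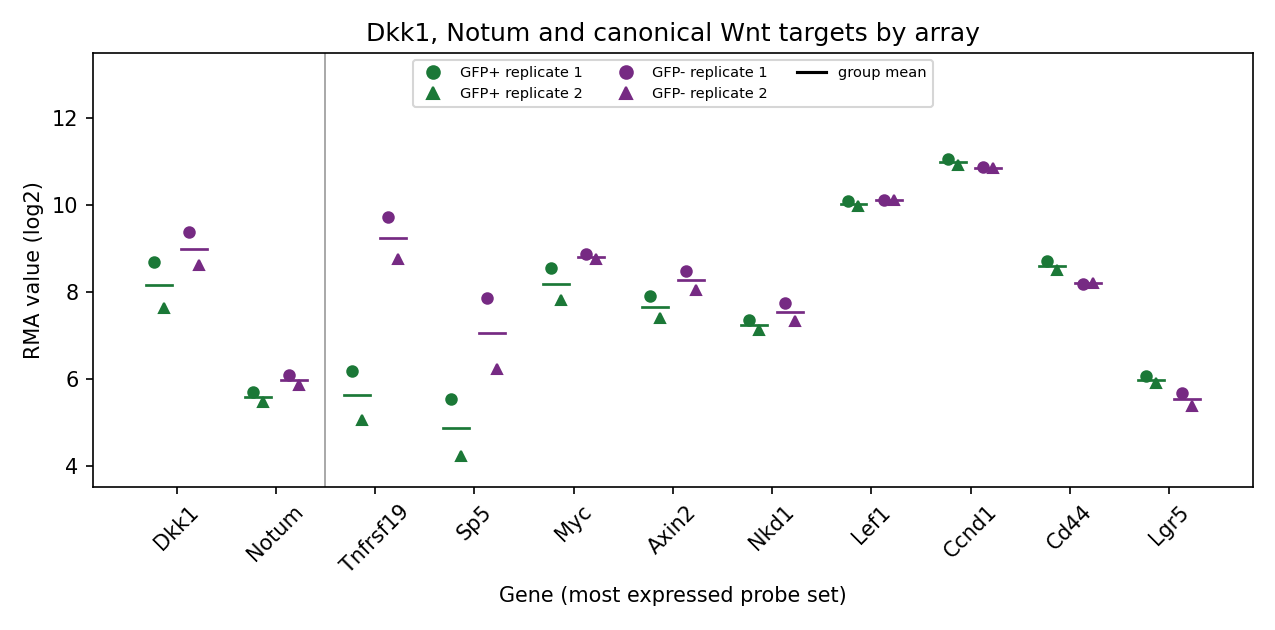
Log2 value on each of the 4 arrays for Dkk1 and Notum, left of the line, and for 9 canonical Wnt targets, each by its probe set of highest mean, with GFP+ arrays left of GFP- arrays. Circles are replicate 1 and triangles replicate 2. Dkk1, Tnfrsf19, Sp5 and Axin2 have the circle above the triangle in both groups, and the Tnfrsf19 groups are separate while those of Dkk1 overlap.

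The other parts of the pathway were counted with 1 probe set per gene. By the same count, 8.02% of all genes were called in either direction. Of 14 further Wnt inhibitors, 0 were called by limma. At an unadjusted p under 0.05, 1 of them was higher in GFP+ cells (Igfbp4, difference 0.51, adjusted p = 0.0579 by limma) and 1 in GFP- cells (Cer1, difference -0.51, adjusted p = 0.181 by limma). Both were named after their values were seen. The inhibitor of highest mean, Tpbg, differed by 0.26 (adjusted p = 0.320 by limma). Of the 6 other Shisa genes measured, Shisa4 was called higher in GFP+ cells (0.41, adjusted p = 0.0450 by limma) and Shisa5 lower (-0.50, adjusted p = 0.0360 by limma). The direction of Shisa2 was thus not that of every relative. The 4 Fgf receptor genes had 0 calls by limma and 0 genes at an unadjusted p under 0.05. Fgfr1, the one of highest mean, read 10.88 and 10.96 in GFP+ cells against 10.75 and 10.92 in GFP- cells.

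Of the 19 genes for Wnt proteins, which several of the antagonists bind, 1 was called higher and 1 lower in GFP+ cells, beside 8.02% of all genes called in either direction. Wnt5b was higher in GFP+ cells (8.54 and 8.47, against 7.07 and 6.96 in GFP- cells, difference 1.49, adjusted p = 0.00638 by limma). Wnt4 was lower in GFP+ cells (6.31 and 6.50, against 7.10 and 7.15 in GFP- cells, difference -0.72, adjusted p = 0.0278 by limma). Wnt8b read 5.40 and 4.83 in GFP+ cells against 7.06 and 6.13 in GFP- cells, a difference of -1.48 that was not called (adjusted p = 0.0894 by limma), on its probe set of highest mean. A second Wnt8b probe set was called and lower in GFP+ cells (4.45 and 4.43, against 5.15 and 4.94 in GFP- cells, difference -0.61, adjusted p = 0.0399 by limma), and the remaining one had overlapping groups (difference 0.08). Wnt1, a caudalizing ligand of the midbrain, read 4.92 and 5.47 in GFP+ cells against 5.52 and 5.65 in GFP- cells (difference -0.39, adjusted p = 0.302 by limma). Porcn, the enzyme that adds the lipid which Notum removes, was lower in GFP+ cells (-0.54, adjusted p = 0.0297 by limma).

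Of 12 Frizzled and Lrp receptor genes, 3 were called higher in GFP+ cells and 1 in GFP- cells, against 2.63% and 5.40% of all genes. At an unadjusted p under 0.05 by limma, 6 were higher in GFP+ cells and 2 in GFP- cells, while 26.7% of all probe sets had such a p. Fzd1 differed by 1.14 (adjusted p = 0.00733), Fzd3 by 1.11 (adjusted p = 0.00767), Fzd4 by 0.93 (adjusted p = 0.0196) and Fzd7 by -0.52 (adjusted p = 0.0308), all by limma. Fzd1 read 10.74 and 10.74 in GFP+ cells against 9.59 and 9.60 in GFP- cells. The median difference was 0.12 for the receptor genes and 0.06 for the 10 member genes. Ligands, receptors and the other Shisa genes thus each had calls in both directions, with 1 call each way for ligands and Shisa genes. The 3 member genes called were all higher in GFP+ cells. Other lists also had calls in 1 direction only. The called rostral markers (5) and early neural markers (4) were all higher in GFP+ cells. Lists with calls only lower in GFP+ cells were the caudal neural (4), pluripotency (5), endoderm (7) and mesoderm (1) markers. The canonical targets (1 lower) and the Wnt secretion genes (1 lower) also had calls in that direction only. These differences between lists were not tested.

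**Figure D4:**
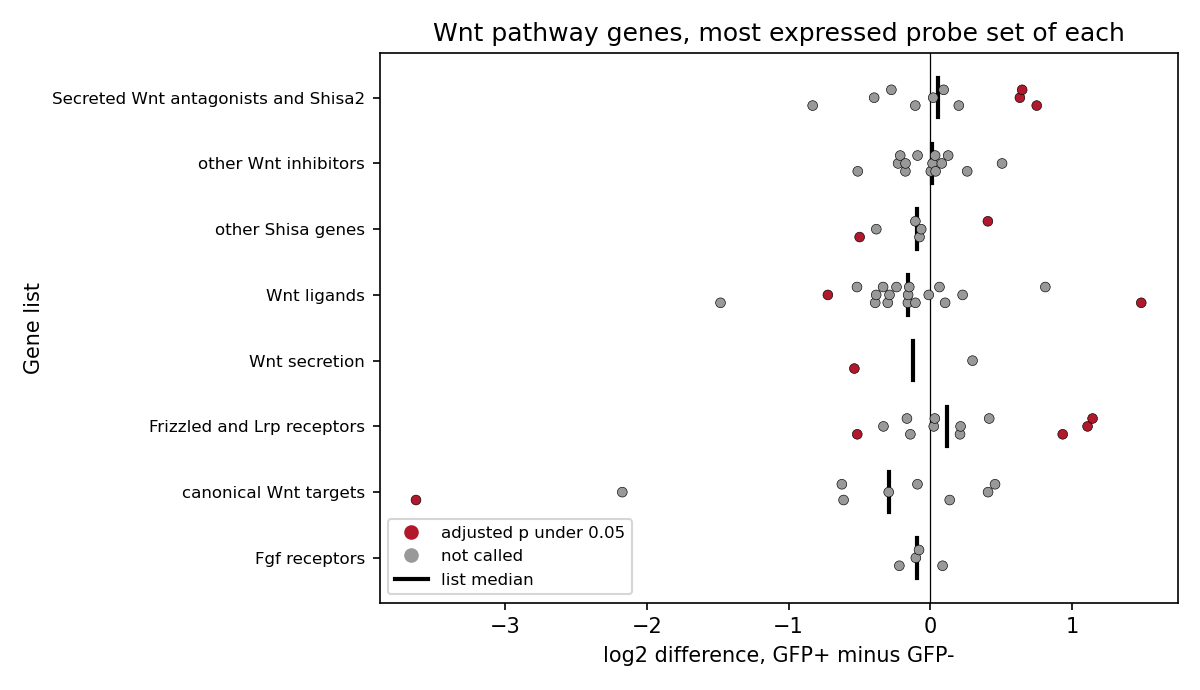
Difference in log2 value, GFP+ minus GFP-, of each gene in 8 lists of Wnt and Fgf pathway genes, each gene by its probe set of highest mean. Red points passed an adjusted p of 0.05 and black bars are list medians, which lie at 0.06 for the 10 members, 0.12 for the receptors and -0.29 for the canonical targets.

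Other genes followed the members closely over the 4 arrays. Likeness was the root mean square distance between log2 values centred on each gene's own mean, searched over 18194 genes, and with 4 arrays it is a description only. Closest to Shisa2 were Nrip1 (0.0092), Rps6ka3 (0.0118) and Mgst1 (0.0152). Closest to Frzb were Gas1 (0.015), Zfp36l1 (0.0181) and Zfp521 (0.0206), and closest to Sfrp1 were Prag1 (0.0328), Akap13 (0.0399) and Syt11 (0.0425). The nearest genes to Dkk1 were farther off, with Emx2 at 0.148, Fgf14 at 0.189 and Gm364 at 0.221. Distances were not scaled by a gene's spread, and the Dkk1 arrays lay farther apart than those of Shisa2, Frzb or Sfrp1. The larger distances of Dkk1 therefore do not show that fewer genes shared its pattern. Emx2, a homeobox gene of the dorsal forebrain, differed by -0.63 and was not called (adjusted p = 0.336 by limma).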

How the data were processed

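Total RNA of sorted Rax::GFP+ and Rax::GFP- cells at day 4.5 was hybridised to 1-colour Affymetrix arrays, 2 per group. The deposited values are log2 expression per probe set, made by the authors with RMA (background correction, quantile normalization, probe summary) in R 2.13.0, which hides any difference in total RNA. They carry no detection calls, and the number of arrays limits precision. The platform annotation gave 1 gene symbol for 34958 probe sets, several for 932 and none for 9211.

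All 45101 probe sets were fitted with limma 3.58.1 in R 4.3.3 (lmFit, eBayes, no covariates, 2 residual and 2.52 prior degrees of freedom), GFP+ minus GFP-, with Benjamini-Hochberg adjustment over all and a threshold of 0.05. An exact permutation test of 2 against 2 cannot go below 0.333. Scripts were tested on simulated data. Named genes were all members, up to 4 called genes of the largest difference per list (or the gene of highest mean), genes the study names, and 3 nearest genes. Sp5, Cd44, Lgr5, Igfbp4 and Cer1 fell outside this rule. Members and lists were chosen with earlier results of these data known. Alternatives covered dim probe sets, scaling, variance trend, array weights, the replicate block and each array left out.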

Additional observations from a re-analysis of the deposited data

How the results depend on the processing

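The number of calls rests on few arrays. Against 3367 probe sets, 5 member probe sets and 3 member genes called, limma with the replicate number as a block called 0, 0 and 0 (11019, 11 and 5 at an unadjusted p under 0.05). Deviations of same-numbered arrays correlated at -0.0514, and the sources do not say what a number marks, so whether same-numbered arrays are paired was not settled. Leaving out each array in turn gave 0 to 2978 probe sets, 0 to 1919 higher in GFP+ and 0 to 1059 higher in GFP-, with 0 to 2 member probe sets and 0 to 1 member genes. Without GFP+ replicate 1 the counts were 820, 0 and 0 (12 member probe sets at an unadjusted p under 0.05), and without either GFP- array 0, 0 and 0 (6 and 7). A variance trend gave 6962 probe sets, 3732 higher in GFP+ and 3230 higher in GFP-, and 8 member probe sets, adding 1438620_x_at and 1460187_at of Sfrp1 and Sfrp2. The cause was not tested. Sfrp1 1416594_at turned sign with median centring (-0.0123) and ranged over -0.1513 to 0.2042 with 1 array out. Sfrp5 1423023_at turned with centring (-0.0182) and quantile scaling (-0.0263) and ranged over -0.0046 to 0.0456. With 1 array out, Dkk3 ranged over -0.0684 to 0.2567 on 1448669_at and -0.1556 to 0.2918 on 1417312_at. Dkk1 ranged over -1.37 to -0.29 and -1.54 to -0.29, and the block gave it adjusted p = 0.103 and 0.0870 by limma (SE 0.11 and 0.10). Under the same block, adjusted p by limma was 0.0779 and 0.0850 for Shisa2. It was 0.0919 and 0.0934 for the called Sfrp1 probe sets and 0.110 for the called Frzb probe set. The standing of Dkk1 beside these genes thus depended on whether same-numbered arrays are paired. The 5 member calls were kept under the dim filter, centring, quantile scaling, the trend, array weights and removal of control probe sets.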
